A study of Mus musculus with 66 samples.

Results

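Serpinb1a, Serpina3g, Tiparp and Ahr are 4 of the 23420 genes listed for mouse splenic B cells that were stimulated for 2 h or 4 h, and they were chosen by their log2 responses to interleukin-21 (IL-21) or to anti-IgM in these same libraries. Their responses to those agents are therefore given as values without a test, and tests are kept for anti-CD40, time and cell type. How many of all genes have groups that do not overlap in those responses was not counted. Serpinb1a and Serpina3g encode serpins, inhibitors that trap a protease by a covalent, shape-changing reaction. SERPINB1 is known for blocking neutrophil serine proteases, and mouse Serpina3g, also called Spi2A, for inhibiting cysteine cathepsins and protecting lymphocytes from lysosomal damage. Ahr encodes the aryl hydrocarbon receptor, a transcription factor that enters the nucleus when it binds a small ligand, pairs with ARNT and switches on genes that carry its short DNA motif. Tiparp, also called Parp7, is a classical gene of that kind, and its product is a mono-ADP-ribosyltransferase that in turn represses the receptor.

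The stimuli stand for signals a B cell meets in the germinal centre (GC), the site in the follicle where B cells mutate their receptors and are selected. IL-21 is made by follicular helper T cells and signals through JAK kinases and STAT3. CD40 receives contact help from the same T cells, and anti-IgM cross-links the B cell receptor as antigen would. All cells came from the spleen of BALB/c mice of the MEG strain, which carry the B1-8 BCR transgene as IgM, so the GC and the naive cells shared the transgenic background. GC B cells (33 libraries) and naive B cells (33 libraries) were purified on beads. They were left without stimulus or given anti-CD40, anti-IgM, IL-21, IL-21 with anti-CD40, or anti-IgM with anti-CD40. RNA libraries were made with a low-input, full-length cDNA kit. The animals' age, the doses and the number of animals behind each library are not given in the sources used here.

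The 66 libraries fell into separately scaled sets. Set A (34 libraries) held IL-21, IL-21 with anti-CD40 and an anti-CD40 group. Set B (32 libraries) held the unstimulated cells, anti-IgM, anti-IgM with anti-CD40 and a second anti-CD40 group. Each of the 28 combinations of cell type, stimulus, time and set had 2 to 3 libraries. The commonest low value was -5.09 in every set A library and -4.83 in every set B library, so stimuli were compared within a set only, and IL-21 was never compared with unstimulated cells. Values are the authors' deposited log2 values, which summed to between 926830 and 1065945 when back-transformed, close to CPM. Read depth is unknown, and libraries of the same group correlated at 0.941 to 0.988 over genes. All 4 genes were above the filter value (log2 of 1), Serpinb1a in 65 of 66 libraries and the others in 66 of 66. They were among 11264 genes tested. Within each set the 7 GC markers were all higher and the 6 naive markers all lower in GC than in naive cells under anti-CD40, and the same held in unstimulated cells.

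Serpinb1a (ENSMUSG00000044734.16) lies on the minus strand of chromosome 13, from 32842092 to 32851185 in GRCm38 (mm10). Serpina3g (ENSMUSG00000041481.16) lies on the plus strand of chromosome 12, from 104236245 to 104241939, inside a serpin cluster in which Serpina3h is 5966 bases and Serpina3f 15116 bases away. Tiparp (ENSMUSG00000034640.9) lies on the plus strand of chromosome 3, from 65528410 to 65555518, and Ahr (ENSMUSG00000019256.17) on the minus strand of chromosome 12, from 35497974 to 35535038. Tiparp is overlapped on the other strand by the pseudogene 4931440P22Rik and Ahr by the non-coding RNA gene Gm48236. Whether strand was used in counting is not given in the sources used here, so reads from these overlaps cannot be told apart. Of the 50-base stretches of the annotated Serpina3g transcripts, 15.5% also occurred in another gene (8.89% in Serpina3h, 6.84% in Serpina3i and 6.29% in Serpina3f). The share was 2.81% for Serpinb1a and 0% for Tiparp and Ahr. Serpina3h and Serpina3i never exceeded -2.66 and -1.51 on the log2 scale. Serpina3f reached 5.58, and how reads of the shared stretches were assigned is not given in the sources used here, so its values and those of Serpina3g are uncertain to that extent.

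The promoter table from RefSeq (GRCm38.p6) held windows of 250 bases before to 50 bases after the start site for 2 of the 4 genes. These windows, of Serpina3g and Tiparp, are shown together with the first window of Serpina3f, the cluster neighbour with a pattern over conditions close to that of Serpina3g. Capitals mark a match to TTCNNNGAA, the STAT-type motif, or to GCGTG, the core of the aryl hydrocarbon receptor motif, each searched on both strands.
Serpina3g, chr12:104235897-104236196, + strand: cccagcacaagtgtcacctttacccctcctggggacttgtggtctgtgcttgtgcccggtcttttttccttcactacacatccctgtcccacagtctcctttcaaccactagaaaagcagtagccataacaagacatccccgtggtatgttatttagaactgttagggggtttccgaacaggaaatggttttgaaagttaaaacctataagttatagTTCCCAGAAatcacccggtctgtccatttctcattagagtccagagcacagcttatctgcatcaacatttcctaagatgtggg
Serpina3f, chr12:104214294-104214593, + strand: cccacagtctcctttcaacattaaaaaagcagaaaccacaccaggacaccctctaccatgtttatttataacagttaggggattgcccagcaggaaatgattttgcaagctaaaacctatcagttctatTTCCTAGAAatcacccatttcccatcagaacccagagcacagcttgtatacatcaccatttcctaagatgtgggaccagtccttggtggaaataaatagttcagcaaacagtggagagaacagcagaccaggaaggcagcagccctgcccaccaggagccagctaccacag
Tiparp, chr3:65528197-65528496, + strand: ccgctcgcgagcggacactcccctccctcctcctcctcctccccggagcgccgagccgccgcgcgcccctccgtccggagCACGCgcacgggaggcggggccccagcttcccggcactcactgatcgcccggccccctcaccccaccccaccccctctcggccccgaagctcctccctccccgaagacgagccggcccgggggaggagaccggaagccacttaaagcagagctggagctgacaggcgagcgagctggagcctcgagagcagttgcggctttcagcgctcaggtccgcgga

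In Serpina3g the STAT-type match began 33 bases before the start site of its RefSeq window. In the Serpina3f window shown it began 121 bases before the start site. The Serpina3g window ended at 104236196, before the annotated gene start at 104236245, whereas the Serpina3f window spanned its gene start at 104214544. These distances therefore depend on the annotation and cannot be compared between the genes. In another Serpina3f window the same match began 210 bases before the start site, and a GCGTG began 7 bases before it. TTCNNNGAA occurred in 8.3% of all 32851 windows. The Tiparp window held 1 GCGTG on the minus strand, read as CACGC on the strand printed, 170 bases before the start site, and GCGTG occurred in 32.4% of all windows. No TTCNNNGAA was found in the Tiparp window and no GCGTG in that of Serpina3g. A match is a run of letters and not a measured binding site.

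The Serpinb1a values under IL-21 stood far above those under anti-CD40 in each cell type, and the combination lay between them in GC cells. In GC cells its log2 level was 7.62, 7.55 and 7.49 at 2 h of IL-21 and 7.14, 7.47 and 7.23 at 4 h. With anti-CD40 alone in set A it was 3.36 and 3.25 at 2 h and 1.48, 1.77 and 1.83 at 4 h. With both agents it was 5.66, 5.70 and 5.83 at 2 h and 4.47, 4.78 and 5.0 at 4 h. No group overlapped its neighbour in that order. Naive cells had log2 levels of 9.15 and 9.21 at 2 h of IL-21 and 9.15, 9.22 and 9.19 at 4 h. Under anti-CD40 they had 6.61, 6.64 and 6.74 at 2 h and 4.67, 4.71 and 4.63 at 4 h, and under both agents 7.36, 7.36 and 7.41, then 6.05, 6.15 and 6.19. IL-21 alone was highest in naive cells too, and its 2 h and 4 h groups overlapped. Averaged over both times, adding IL-21 to anti-CD40 went with 6.68-fold more Serpinb1a in GC cells and 2.12-fold more in naive cells, and IL-21 alone stood 30.2-fold above anti-CD40 alone in GC cells and 11.4-fold above it in naive cells. The contrast of IL-21 added to anti-CD40 was used in picking the genes. Beside it stand the 33.2% of all genes in GC and 24.3% in naive cells that passed its test (limma, adjusted p under 0.05).

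In set B the Serpinb1a log2 levels of unstimulated GC cells were 3.69 and 3.49 at 2 h and 3.32 and 3.04 at 4 h. Anti-IgM gave 4.06 and 4.40 at 2 h and 4.43 and 5.0 at 4 h. Anti-CD40 gave 3.22 and 3.61 at 2 h and 1.77 and 0.83 at 4 h, and anti-IgM with anti-CD40 3.07 and 2.47, then 1.70 and 1.46. Anti-IgM was thus the highest group at each time and anti-CD40, alone or combined, the lowest at 4 h. In naive cells the levels were 7.48 and 7.68, then 6.89 and 6.81 without stimulus, and 8.50 and 8.15, then 7.56 and 7.49 with anti-IgM. Anti-CD40 gave 6.49 and 6.17, then 4.07 and 3.97, and anti-IgM with anti-CD40 6.92 and 6.57, then 5.52 and 5.25. The order in naive cells was the same at each time, with anti-IgM at the top and anti-CD40 alone at the bottom. Averaged over times, anti-IgM against no stimulus was 2.12-fold in GC and 1.63-fold in naive cells, in a contrast also used in picking the genes, in which 9.05% of all genes in GC and 30.4% in naive cells passed the test. Added to anti-CD40, the log2 difference was -0.18 in GC cells, with overlapping groups at 4 h, and 0.89 in naive cells.

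Serpinb1a is also expressed by neutrophils, whose markers varied between the libraries. In GC cells of set A the back-transformed values of 11 of 12 listed neutrophil markers, of which Cxcr2 stayed under the filter value in every library, summed to between 66.4 and 112 under IL-21. The sums were 30.7 to 42.1 under anti-CD40 and 24.1 to 76.9 under both, while Serpinb1a itself was 141 to 197 under IL-21, 2.79 to 10.3 under anti-CD40 and 22.2 to 57 under both. In naive cells the marker sums overlapped between IL-21 (12.3 to 31.7) and anti-CD40 (4.88 to 30.3), and Serpinb1a was 566 to 597 against 24.8 to 107. When anti-CD40 was added to IL-21, 4 of 9 tested neutrophil markers and 3 of 6 tested monocyte and macrophage markers fell in GC cells and 0 of either in naive cells (limma, adjusted p under 0.05), beside 56.6% of all genes called in GC and 55.1% in naive cells. At an unadjusted p under 0.05, 0 neutrophil and 0 monocyte and macrophage markers passed in naive cells. The part of other cells in the Serpinb1a values was not tested, and in bulk RNA fewer cells of a type cannot be told apart from less RNA per cell.

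For Serpina3g the combination of IL-21 with anti-CD40 lay close to IL-21 alone, and far above anti-CD40 alone. In GC cells its log2 level was 7.82, 7.78 and 7.48 at 2 h of IL-21 and 6.19, 6.15 and 6.09 at 4 h. With both agents it was 7.39, 7.49 and 7.51, then 6.38, 6.48 and 6.24, and with anti-CD40 alone 3.65 and 3.55, then 2.35, 2.55 and 2.86. The IL-21 group and the combination overlapped at 2 h, and anti-CD40 alone lay well under both. Naive cells had 9.10 and 9.24, then 8.12, 8.06 and 8.06 with IL-21, and 8.69, 8.60 and 8.54, then 8.36, 8.26 and 8.25 with both agents. Under anti-CD40 alone they had 5.88, 5.99 and 5.86, then 5.14, 5.02 and 4.67. Adding IL-21 to anti-CD40 went with 14.1-fold more Serpina3g in GC cells and 8.13-fold more in naive cells, and no groups overlapped.

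Under anti-IgM Serpina3g went the other way from the remaining 3 genes. Its log2 level in unstimulated GC cells was 4.07 and 3.75 at 2 h and 3.63 and 2.99 at 4 h, against 3.45 and 2.75, then 2.52 and 2.18 with anti-IgM. Anti-CD40 gave 3.77 and 3.75, then 2.57 and 2.22, and both agents together 3.24 and 2.62, then 2.14 and 1.73. In naive cells the unstimulated level was 5.97 and 6.57 at 2 h and 6.69 and 7.05 at 4 h, against 5.74 and 5.68, then 3.83 and 3.97 with anti-IgM. The anti-IgM libraries were below the unstimulated ones in each cell type and at each time without overlap, and the share of all genes doing so was not counted. Naive cells had 5.57 and 5.81, then 4.61 and 5.14 with anti-CD40, and 5.55 and 5.57, then 3.27 and 3.67 with both agents. The log2 difference between anti-IgM and no stimulus was -0.89 in GC cells and -1.76 in naive cells, and at 4 h in naive cells it reached -2.97, or 7.84-fold less.

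Ahr, the receptor, had higher values at 4 h than at 2 h of IL-21. In GC cells its log2 level was 4.12, 4.33 and 4.32 at 2 h of IL-21 and 6.25, 5.86 and 5.68 at 4 h, and 4.68, 4.45 and 3.68, then 5.89, 5.34 and 5.29 with both agents. Anti-CD40 alone gave 2.84 and 2.76, then 2.25, 2.41 and 3.04. IL-21 alone and with anti-CD40 overlapped at each time and anti-CD40 alone lay below. In naive cells the levels were 6.04 and 5.15, then 6.74, 6.45 and 6.34 with IL-21, and 6.26, 6.14 and 5.91, then 7.12, 6.80 and 6.70 with both agents. Anti-CD40 alone gave 5.89, 5.23 and 5.12, then 5.56, 5.28 and 5.03, so that at 2 h the IL-21 and anti-CD40 groups of naive cells overlapped. IL-21 added to anti-CD40 went with 4.61-fold more Ahr in GC cells and 2.20-fold more in naive cells.

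In set B the Ahr log2 levels of unstimulated GC cells were 3.02 and 2.80, then 3.07 and 3.09, and with anti-IgM 4.00 and 3.80, then 4.42 and 4.47. Anti-CD40 gave 2.62 and 2.24, then 3.02 and 3.22, and both agents 3.86 and 4.15, then 4.81 and 5.02. Naive cells went from 4.38 and 4.24 at 2 h and 3.41 and 4.22 at 4 h without stimulus to 6.15 and 6.53, then 7.06 and 7.41 with anti-IgM. All anti-IgM groups, alone or combined, lay above all groups without it, in each cell type. The response to anti-IgM was used in picking the genes, and the share of all genes with such a separation was not counted. Naive cells had 4.06 and 4.37, then 3.95 and 3.90 with anti-CD40, and 6.01 and 6.48, then 7.87 and 8.27 with both. At 4 h in naive cells, anti-IgM added to anti-CD40 went with 17.7-fold more Ahr, and anti-IgM against no stimulus with 10.7-fold more. The naive anti-CD40 libraries of set A exceeded those of set B by a log2 difference of 1.20 at 2 h and 1.36 at 4 h without overlap, and Ahr levels were not compared across sets otherwise.

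Tiparp, the receptor's target and repressor, stood above anti-CD40 under IL-21 and above no stimulus under anti-IgM. Set A held no unstimulated cells, and anti-CD40 itself lowered Tiparp in set B (log2 difference of -0.51 in GC and -1.20 in naive cells). How much of the gap between IL-21 and anti-CD40 comes from either agent was not tested. In GC cells its log2 level was 6.06, 6.28 and 6.14, then 5.82, 5.92 and 6.22 with IL-21, and 4.54, 4.66 and 4.50, then 3.96, 4.05 and 3.90 with both agents. Anti-CD40 alone gave 3.38 and 3.44, then 2.88, 2.64 and 3.09. The combination lay between the single agents, as for Serpinb1a. In naive cells the levels were 6.75 and 6.84, then 6.48, 6.56 and 6.92 with IL-21, and 5.80, 5.91 and 5.88, then 5.38, 5.15 and 5.27 with both. Anti-CD40 alone gave 5.78, 5.64 and 5.59, then 4.41, 4.63 and 4.76, and at 2 h the highest of these lay just under the lowest with IL-21 added, with a log2 difference of means of 0.19. IL-21 added to anti-CD40 went with 2.19-fold more Tiparp in GC cells and 1.35-fold more in naive cells.

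In set B the unstimulated GC cells had Tiparp log2 levels of 4.22 and 4.15, then 4.46 and 4.21, and with anti-IgM 6.82 and 6.71, then 5.60 and 5.53. Anti-CD40 gave 3.57 and 4.05, then 3.56 and 3.84, and both agents 6.03 and 6.26, then 5.32 and 5.23. Naive cells had 6.62 and 6.45, then 6.14 and 6.37 without stimulus and 8.40 and 8.15, then 7.59 and 7.65 with anti-IgM. The anti-IgM groups were again above all groups without it in each cell type, in a response used in picking the genes and with no count over all genes. Naive cells had 5.76 and 5.34, then 4.67 and 5.02 with anti-CD40, and 7.61 and 7.15, then 6.87 and 6.78 with both. Anti-IgM against no stimulus was 3.74-fold in GC cells and 2.94-fold in naive cells. Of the T and NK cell markers, Cd4, Cd8a, Cd8b1 and Ncr1 were under the filter value in every library. Their summed back-transformed values were 274 to 763 under anti-IgM against 150 to 232 without stimulus in GC cells, and 279 to 423 against 93 to 177 in naive cells. Nearly all of that sum was Lck, a kinase gene, at 272 to 762 against 148 to 231 in GC cells and 269 to 417 against 86 to 172 in naive cells. Lck was the 1 of 6 tested that rose, by a log2 difference of 1.42 ± 0.22 in GC cells (limma, adjusted p = 0.000225) and 1.45 ± 0.22 in naive cells (adjusted p = 4.93e-05). The other markers summed to 0.649 to 2.74 under anti-IgM and 1.18 to 2.3 without stimulus in GC cells, and to 5.51 to 9.59 and 4.24 to 8.99 in naive cells, with overlapping groups.

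**Figure D1:**
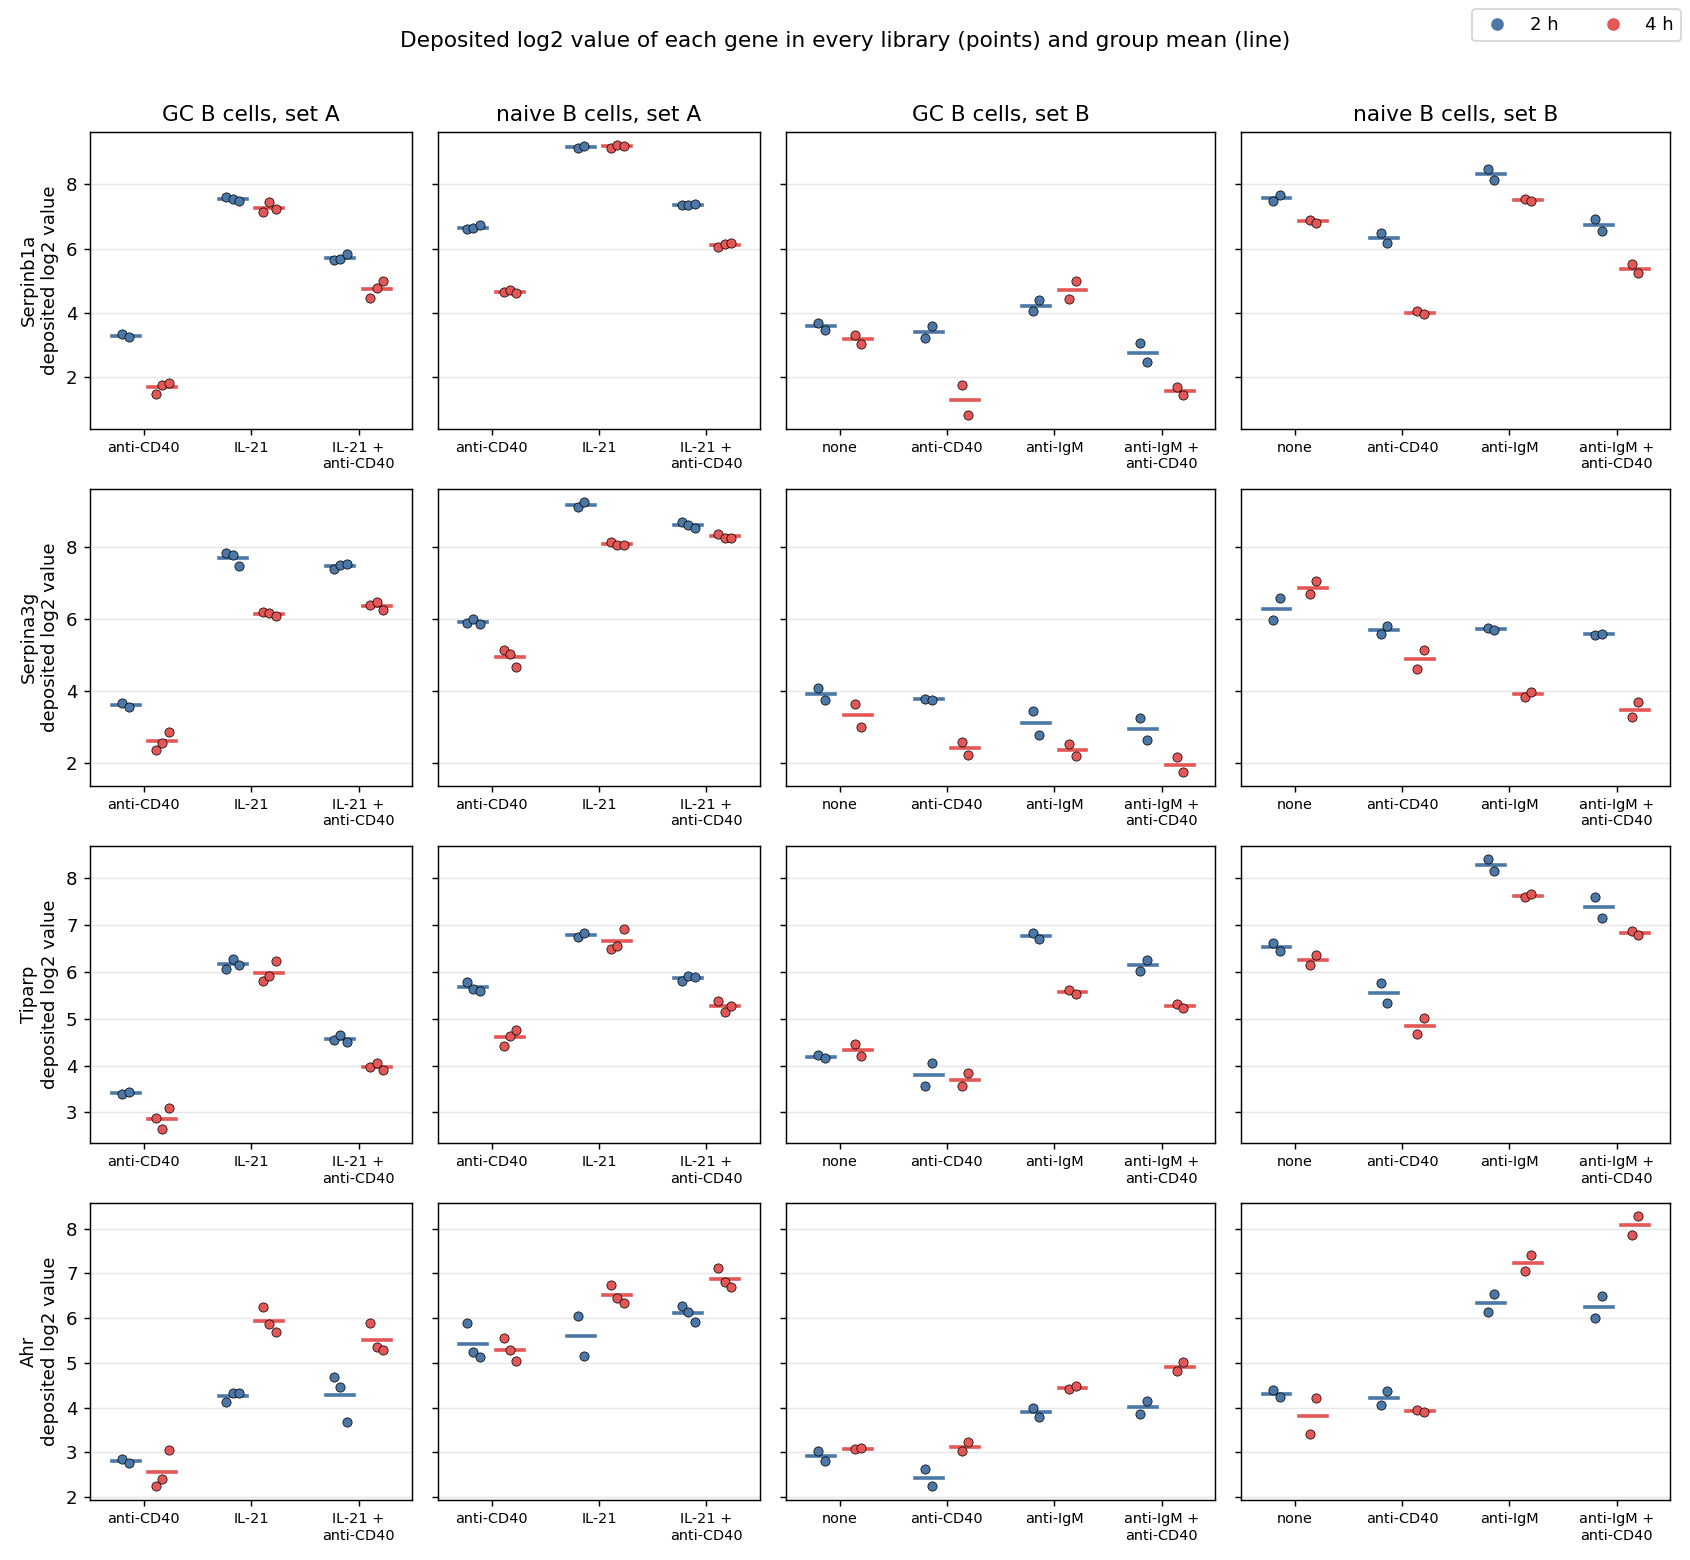
Deposited log2 value of Serpinb1a, Serpina3g, Tiparp and Ahr (rows) in every library, for GC and naive B cells of set A and set B (columns); each point is 1 library, blue at 2 h and red at 4 h, and lines are group means. Serpinb1a under IL-21 with anti-CD40 lies between the single agents (GC means of 7.55, 5.73 and 3.30 at 2 h for IL-21, both agents and anti-CD40), and Serpina3g under both agents lies close to IL-21 alone (7.69 and 7.47).

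Adding anti-CD40 lowered Serpinb1a and Tiparp on every background, whether the cells had no other stimulus, anti-IgM or IL-21, and no fall was called for Ahr. These contrasts were not themselves used to pick the genes. Those on top of anti-IgM and of IL-21 subtract the anti-IgM and IL-21 libraries that the choice used, however. A gene picked for high values in those libraries leans towards a fall, so these tests are not independent of the choice. In unstimulated GC cells anti-CD40 lowered Serpinb1a by a log2 difference of -1.03 ± 0.20 (SE; limma, adjusted p = 0.00101) and Tiparp by -0.51 ± 0.14 (adjusted p = 0.019). Serpina3g had -0.54 ± 0.21 (adjusted p = 0.104, or 0.00224 with the replicate block), and Ahr -0.22 ± 0.17 (adjusted p = 0.508). The Tiparp call was lost without anti-CD40 replicate 4 at 2 h (-0.39) or 4 h (-0.44) and without unstimulated replicate 1 at 2 h (-0.49) or 4 h (-0.44). With a block on the replicate numbers of the titles, in place of those in the file headers, the calls of Serpinb1a (adjusted p = 0.0711) and Tiparp (adjusted p = 0.237) were both lost, and Serpina3g had an adjusted p of 0.255. Among all genes 13.9% passed the threshold in that comparison, and 2 of the 4 did. In naive cells Serpinb1a fell by 2.04 ± 0.20 on the log2 scale (adjusted p = 2.04e-07), Serpina3g fell by 1.29 ± 0.21 (adjusted p = 0.000102) and Tiparp fell by 1.20 ± 0.14 (adjusted p = 2.45e-06). Ahr had 0.01 ± 0.17 (adjusted p = 0.984, 95% interval -0.36 to 0.37), and 28.7% of all genes passed. At 2 h alone the GC difference of Serpinb1a was only -0.17, against -1.88 at 4 h, and neither Tiparp in GC cells nor Serpina3g in naive cells (-0.58) passed the threshold at 2 h alone.

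On top of anti-IgM, anti-CD40 lowered Serpinb1a 4.90-fold in GC cells (log2 difference -2.29 ± 0.20, adjusted p = 1.07e-07) and 3.62-fold in naive cells (-1.86 ± 0.20, adjusted p = 3.12e-06). Tiparp fell by 0.85 ± 0.14 on the log2 scale in naive cells (adjusted p = 0.000452), and in GC cells it fell by 0.46 ± 0.14 (adjusted p = 0.0376), a call that was lost when any GC library of either group was left out (-0.40 to -0.51). Serpina3g had -0.29 ± 0.21 in each cell type (adjusted p = 0.497 in GC and 0.533 in naive cells), with 95% intervals of -0.73 to 0.15. Ahr had 0.29 ± 0.17 in GC cells (adjusted p = 0.383) and 0.37 ± 0.17 in naive cells (adjusted p = 0.245, or 0.0447 with the replicate block). Of all genes, 12.9% passed in GC and 8.11% in naive cells.

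On top of IL-21, in set A, the genes parted most clearly. Serpinb1a fell 4.52-fold in GC cells (log2 difference -2.18 ± 0.07, adjusted p = 1.44e-21) and 5.38-fold in naive cells (-2.43 ± 0.07, adjusted p = 2.21e-21). Tiparp fell 3.50-fold in GC cells (-1.81 ± 0.08, adjusted p = 1.68e-17) and 2.23-fold in naive cells (-1.16 ± 0.09, adjusted p = 3.17e-12). Serpina3g had a log2 difference of -0.002 ± 0.08 in GC cells (adjusted p = 0.985), with a 95% interval of -0.16 to 0.15, and of -0.18 ± 0.08 in naive cells (adjusted p = 0.0632, interval -0.34 to -0.01). Each of these values joined opposite changes at the 2 times. In GC cells the mean with both agents was below that with IL-21 at 2 h (7.47 against 7.69), with overlapping groups. At 4 h it was above it (6.36 against 6.14), without overlap. The naive value joined a fall at 2 h (-0.56, adjusted p = 0.000527) with a difference of 0.21 at 4 h. Ahr had -0.21 ± 0.18 in GC cells (adjusted p = 0.351) and 0.44 ± 0.19 in naive cells (adjusted p = 0.0588, interval 0.04 to 0.84). Of all genes 56.6% passed in GC and 55.1% in naive cells, so passing was itself common here.

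**Figure D2:**
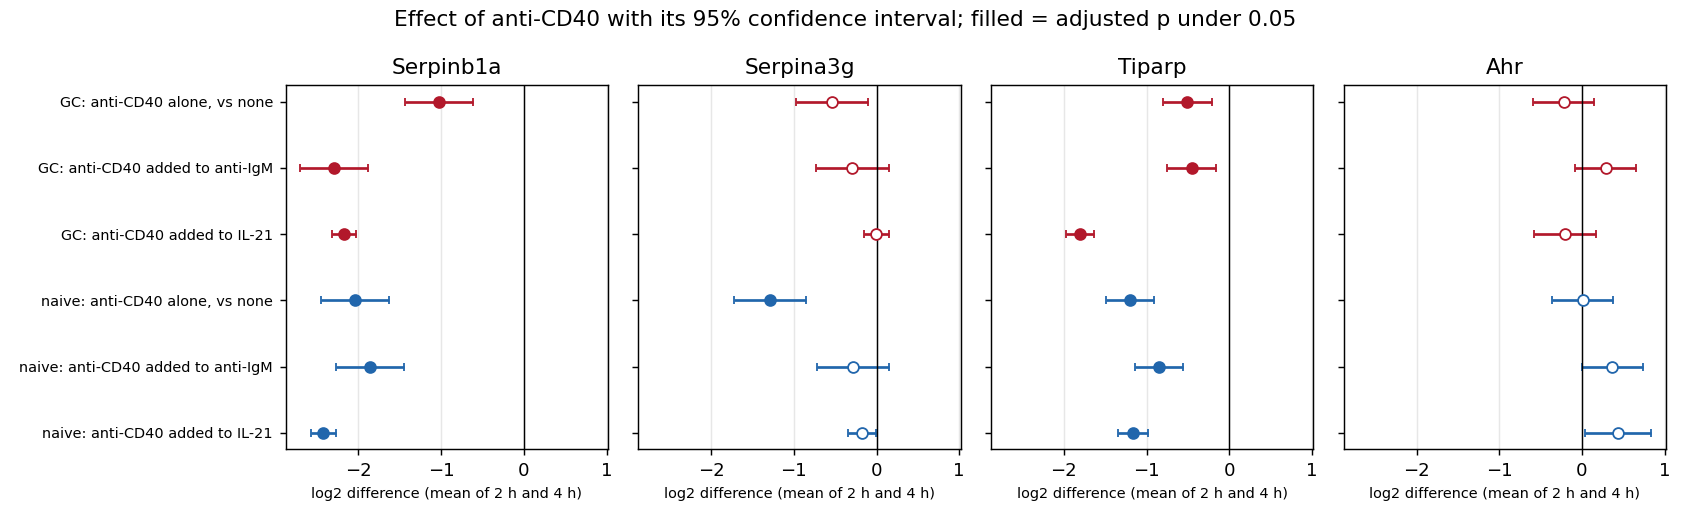
Log2 difference made by anti-CD40 (mean of 2 h and 4 h) for each gene, with its 95% confidence interval from limma; GC cells are red and naive cells blue, and filled points have an adjusted p under 0.05. Serpinb1a and Tiparp are filled and below 0 in all 6 comparisons, Serpina3g is filled in naive cells against no stimulus (-1.29), and Ahr is filled in none.

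The size of these falls was compared between the cell types. Against no stimulus the anti-CD40 effect on Serpinb1a was smaller in GC cells, with a log2 difference between effects of 1.01 ± 0.28 (limma, adjusted p = 0.0441). That call was lost in 13 of 16 fits that left out 1 library, in which the value ran from 0.78 to 1.25, and with the block on the title numbers (adjusted p = 0.619). Serpina3g had 0.75 ± 0.30 (adjusted p = 0.2, or 0.0054 with the replicate block), Tiparp 0.69 ± 0.20 (adjusted p = 0.0577, or 0.00803 with the block) and Ahr -0.23 ± 0.25 (adjusted p = 0.805), against 4.11% of all genes called. On top of IL-21, in a comparison added after the data were seen, Tiparp fell further in GC than in naive cells (-0.65 ± 0.12, adjusted p = 0.000221). Serpinb1a (0.25 ± 0.10), Ahr (-0.64 ± 0.27) and Serpina3g (0.17 ± 0.11) did not pass there, and 2394 of the 11264 genes passed in either direction, 1131 of them (10.0%) in the direction of Tiparp. On top of anti-IgM, also added after the data were seen, 0 of the 4 genes (0 at an unadjusted p under 0.05, limma) and 1.03% of all genes passed. The estimates there were -0.44 ± 0.28 for Serpinb1a, 0.39 ± 0.20 for Tiparp, -0.09 ± 0.25 for Ahr and -0.003 ± 0.30 for Serpina3g.

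From 2 h to 4 h, Ahr rose under most conditions with IL-21 or anti-IgM, while the called changes of the other 3 genes in the main fits were all falls. Ahr rose in 7 of 14 conditions and fell in 0, and it rose in every condition with IL-21 or anti-IgM other than GC cells with anti-IgM alone (0.55 ± 0.25, adjusted p = 0.482). Its rise was 1.67 ± 0.26 on the log2 scale in GC cells with IL-21 (adjusted p = 1.75e-05) and 0.91 ± 0.29 in naive cells (adjusted p = 0.0132). With IL-21 and anti-CD40 it was 1.24 ± 0.26 in GC and 0.77 ± 0.26 in naive cells. The rise was 0.90 ± 0.25 in naive cells with anti-IgM (adjusted p = 0.0173), and 0.91 ± 0.25 in GC and 1.82 ± 0.25 in naive cells with anti-IgM and anti-CD40. Leaving out 1 library ended some of these calls. They were, in naive cells, IL-21 without replicate 2 at 2 h (0.47) or replicate 1 at 4 h (0.80), IL-21 with anti-CD40 without replicate 3 at 2 h (0.67) or replicate 1 at 4 h (0.65), and anti-IgM without replicate 1 at 2 h (0.70) or replicate 2 at 4 h (0.72). In GC cells with anti-IgM and anti-CD40 the call was lost without any of its 4 libraries (0.76 to 1.05). Under the replicate block Ahr also rose in GC cells with anti-CD40 in set B (0.69, adjusted p = 0.00741) and fell in unstimulated naive cells (-0.50, adjusted p = 0.0398).

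Serpina3g fell in 10 of 14 conditions and rose in 0. Under IL-21 it fell by 1.55 ± 0.11 in GC cells (adjusted p = 3.42e-12) and by 1.09 ± 0.12 in naive cells (adjusted p = 2.6e-08). The largest falls were in naive cells with anti-IgM, at -1.81 ± 0.30 (adjusted p = 0.000341), and with anti-IgM and anti-CD40, at -2.09 ± 0.30 (adjusted p = 5.33e-05). Calls were lost in naive cells with IL-21 and anti-CD40 without replicate 1 at 2 h (-0.28), and in GC cells with anti-CD40 in set B without replicate 5 at 4 h (-1.19). In GC cells with anti-IgM and anti-CD40 the call was lost without replicate 1 at 2 h (-0.69) and without replicate 1 (-1.20) or 2 (-0.79) at 4 h. With the replicate block Serpina3g also fell in GC cells with anti-IgM (-0.75, adjusted p = 0.00987) and in naive cells with anti-CD40 in set B (-0.82, adjusted p = 0.00112), and it rose in unstimulated naive cells (0.60, adjusted p = 0.0109).

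Serpinb1a fell in 9 of 14 conditions, including all 8 with anti-CD40. With anti-CD40 alone the fall was -1.61 ± 0.11 in set A and -2.12 ± 0.28 in set B for GC cells, and -1.99 ± 0.10 and -2.31 ± 0.28 for naive cells. Under IL-21 alone it was -0.28 ± 0.10 in GC cells (adjusted p = 0.0306) and 0.01 ± 0.11 in naive cells (adjusted p = 0.955), and the GC call was lost without replicate 1 (-0.24) or 2 (-0.28) at 2 h and without replicate 1 (-0.21) or 3 (-0.25) at 4 h. In GC cells with anti-IgM and anti-CD40 it was lost without replicate 1 at 2 h (-0.89) or replicate 2 at 4 h (-1.07). With the block it also fell in naive cells without stimulus (-0.73, adjusted p = 0.0191) and with anti-IgM (-0.80, adjusted p = 0.0112). Tiparp fell in 8 of 14 conditions, among them anti-IgM in GC cells (-1.20 ± 0.20, adjusted p = 0.00383) and in naive cells (-0.65 ± 0.20, adjusted p = 0.0303). Its log2 difference under IL-21 alone was -0.18 ± 0.12 in GC and -0.14 ± 0.13 in naive cells, and neither passed. The anti-IgM calls of Tiparp were lost in GC cells without replicate 2 at 4 h (-1.16), and in naive cells without replicate 1 at 2 h (-0.53) and without replicate 1 (-0.62) or 2 (-0.69) at 4 h. Those with anti-CD40 in naive cells of set B were lost without replicate 4 at 2 h (-0.49) or 4 h (-0.53), and those with both agents in GC cells without replicate 2 at 2 h (-0.75) or 4 h (-0.83). The block added naive cells with anti-IgM and anti-CD40 (-0.56, adjusted p = 0.0141).

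Set beside all genes, the 4 genes passed in the following numbers between 2 h and 4 h. In GC cells 3 passed with IL-21 (33.8% of all genes), 4 with IL-21 and anti-CD40 (59.8%), 3 with anti-CD40 in set A (48.1%) and 2 with anti-CD40 in set B (10.3%). With anti-IgM 1 passed in GC cells (1.21%), with anti-IgM and anti-CD40 4 passed (8.42%), and without stimulus 0 passed (0.213%), or 0 by limma at an unadjusted p under 0.05. In naive cells 2 passed with IL-21 (42.8%), 4 with IL-21 and anti-CD40 (57.5%), 3 with anti-CD40 in set A (57.0%) and 2 with anti-CD40 in set B (15.6%). With anti-IgM 3 passed in naive cells (15.7%), with anti-IgM and anti-CD40 3 passed (20.5%), and without stimulus 0 passed (15.1%), or 1 by limma at an unadjusted p under 0.05. Time changes were therefore frequent across the genome in set A, and a pass there says little about these genes in particular.

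**Figure D3:**
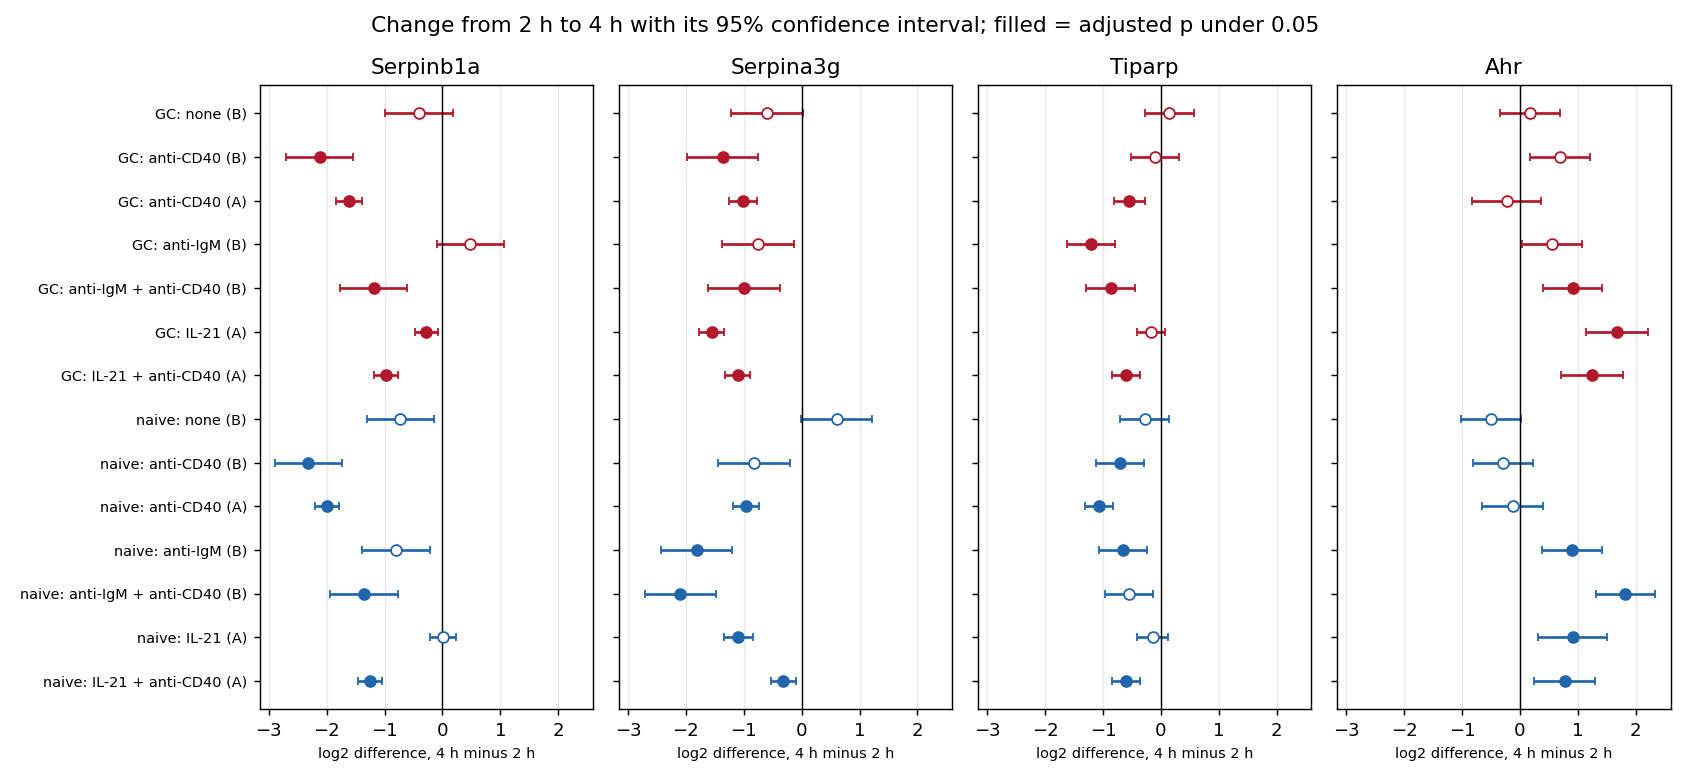
Log2 difference between 4 h and 2 h for each gene in the 14 conditions, with its 95% confidence interval from limma; letters in brackets give the library set, GC cells are red, naive cells blue, and filled points have an adjusted p under 0.05. Ahr has filled points to the right of 0 (up to 1.82) and the other 3 genes have filled points to the left of it (Serpinb1a down to -2.31, Serpina3g to -2.09, Tiparp to -1.20).

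All 4 genes were lower in GC than in naive cells, in 14 of 14 conditions and without overlap between libraries, as were 999 (8.87%) of the 11264 genes tested. Unstimulated GC cells had 14.2-fold less Serpinb1a than naive cells (log2 difference -3.83 ± 0.20, limma, adjusted p = 5.86e-12), 7.76-fold less Serpina3g (-2.96 ± 0.21, adjusted p = 5.71e-10), 4.39-fold less Tiparp (-2.13 ± 0.14, adjusted p = 1.97e-10) and 2.09-fold less Ahr (-1.06 ± 0.17, adjusted p = 4.26e-05). Of all genes 53.7% passed in that comparison. The fit had no replicate block, although same-numbered set B libraries deviated together, so these errors may be too small. With the block 5348 genes passed in place of 6047, and all 4 genes kept their calls. Under anti-CD40 in set B the differences were -2.82, -2.21, -1.44 and -1.29 in the same order of genes, and all 4 passed beside 54.4% of all genes. Under anti-CD40 in set A they were -3.17, -2.33, -2.00 and -2.67, and all 4 passed beside 73.4% of all genes. Over the 14 conditions the difference ran from -1.38 to -4.10 for Serpinb1a, from -1.14 to -3.56 for Serpina3g, from -0.63 to -2.35 for Tiparp and from -0.58 to -3.16 for Ahr. Monocyte and macrophage markers were called lower in GC cells as well, 5 of 6 tested in unstimulated cells, 6 of 6 under anti-CD40 in set B and 4 of 6 in set A. Their sums, over the 7 of 8 listed markers that had values, were 6.94 to 29.8 in GC and 71.5 to 340 in naive cells of set B. In set A these sums were 33.2 to 94.7 and 62.7 to 181 and overlapped. Of 6 tested T and NK cell markers 4 were lower and 2 higher in GC cells in each of these 3 comparisons. Of 9 tested neutrophil markers, 1 was lower in unstimulated GC cells, 2 were lower under anti-CD40 in set B and 8 were higher under anti-CD40 in set A. The part of such cells in the difference was not tested.

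**Figure D4:**
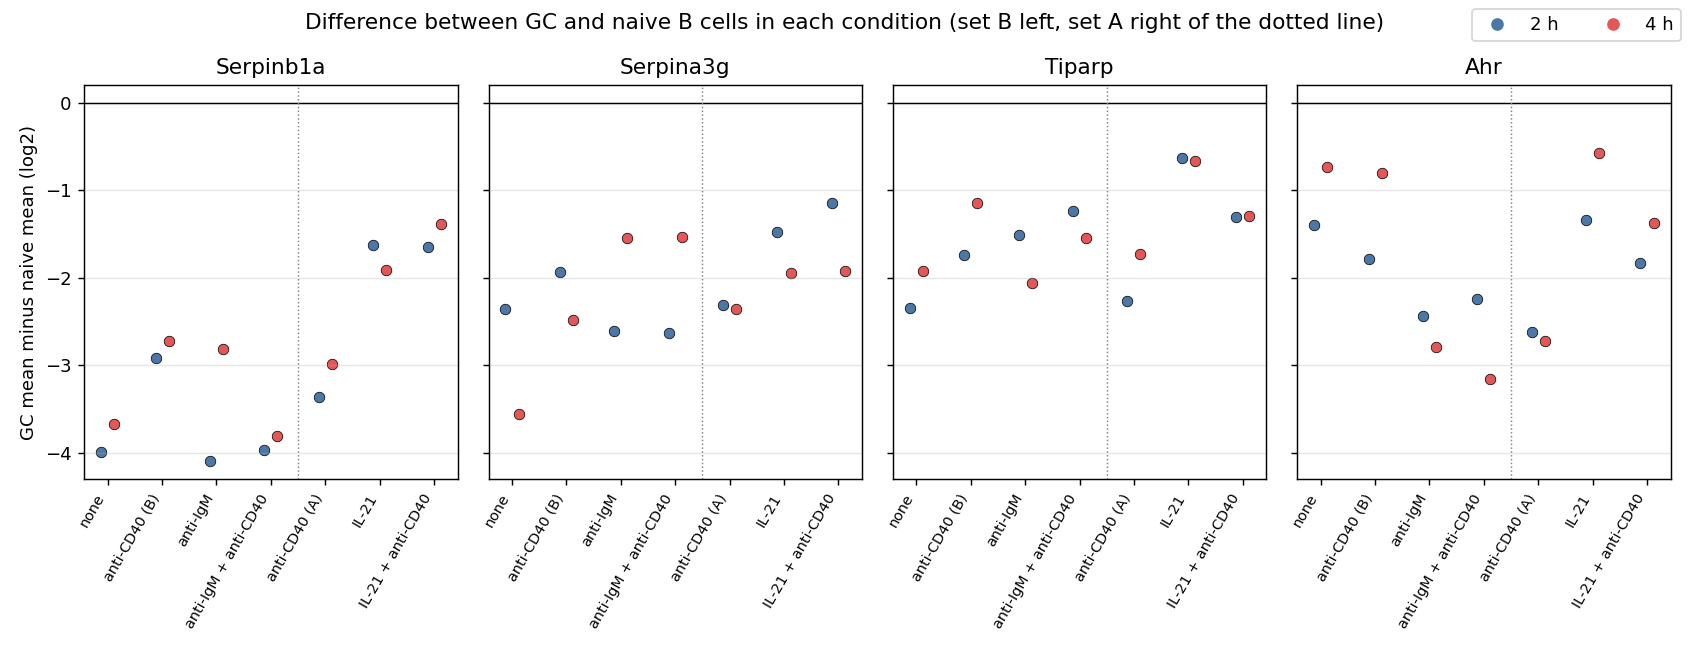
GC mean minus naive mean (log2) of each gene in the 14 conditions, blue at 2 h and red at 4 h, with set B left and set A right of the dotted line; no error is drawn. Every point is below 0, and the nearest to it are Ahr at 4 h (-0.58) and Tiparp at 2 h (-0.63), both under IL-21.

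The other serpins give a frame for Serpinb1a and Serpina3g. Of 61 others listed, 9 passed the filter. When IL-21 was added to anti-CD40 in GC cells, 4 rose and 1 fell, beside 33.2% of all genes called, and the median difference of the 9 was 0.49 against -0.03 for all genes. Serpina3f, the cluster neighbour, rose by 3.90 ± 0.19, and Serpinb9, an inhibitor of granzyme B that protects lymphocytes, by 1.05 ± 0.14. Serpinb6b rose by 0.62 ± 0.11 and Serpini1, neuroserpin, fell by 1.01 ± 0.18. In naive cells 4 rose and 0 fell (Serpina3f 1.94, Serpinf1 0.93, Serpinb9 0.57 and Serpinb6b 0.36), beside 24.3% of all genes, with a median of 0.25 against -0.01.

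Against no stimulus, anti-IgM raised 2 of the 9 serpins in GC cells, Serpinb9 by 2.19 ± 0.19 and Serpinb6b by 2.55 ± 0.29, beside 9.05% of all genes, with a median of 0.12 against -0.05. In naive cells 4 rose and 2 fell, beside 30.4% of all genes. Among them Serpinf1 rose by 4.23 ± 0.37 and Serpinb7 fell by 4.03 ± 0.42. Anti-CD40 raised Serpinb9 by 0.87 ± 0.19 in GC and 0.93 ± 0.19 in naive cells, and Serpinb7 by 1.78 ± 0.42 in GC cells, and no listed serpin fell, beside 13.9% of all genes called in GC and 28.7% in naive cells. When anti-CD40 was added to IL-21, 2 of the 9 rose and 2 fell in each cell type, beside 56.6% of all genes in GC and 55.1% in naive cells, with medians of -0.13 and -0.12 against -0.05 and -0.009. Serpinb9 rose (0.52 ± 0.13 in GC, 0.73 ± 0.14 in naive cells), and so did Serpina3f (0.58 ± 0.18 and 0.51 ± 0.19). In GC cells Serpinf1 fell by 0.67 ± 0.16 and Serpine2 by 0.88 ± 0.27 on the log2 scale, although at 2 h alone Serpine2 had 0.40. In naive cells Serpinb7 fell by 2.57 ± 0.25 and Serpinf1 by 0.44 ± 0.17. Leaving out 1 library ended the naive call of Serpina3f in 3 fits (0.46 to 0.48) and that of Serpinf1 in 5 (-0.36 to -0.40). In unstimulated cells 2 of the 9 were higher and 4 lower in GC than in naive cells, beside 53.7% of all genes, with Serpinf1 higher by 3.85 ± 0.37 and Serpine2 lower by 4.42 ± 0.48 on the log2 scale.

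The proteases that such inhibitors may meet were listed as 18 genes, of which 14 passed the filter. Ctsc, cathepsin C, which activates granule serine proteases, rose when IL-21 was added to anti-CD40 (1.31 ± 0.07 in GC, 0.59 ± 0.07 in naive cells). It fell when anti-CD40 was added to IL-21 (-1.41 ± 0.07 and -1.15 ± 0.07), and when anti-CD40 was compared with no stimulus (-0.79 ± 0.26 and -1.05 ± 0.26). That GC call was lost in 5 of 8 fits without 1 library, in which it lay between -0.58 and -0.90. Ctsc also had the pattern closest to that of Serpinb1a over all conditions, as given further on. Of the 14, 4 rose and 4 fell with IL-21 added in GC cells (median 0.05 against -0.03) and 4 rose and 2 fell in naive cells (0.16 against -0.01), beside 33.2% and 24.3% of all genes called. Added to IL-21, anti-CD40 lowered 6 and raised 2 in GC cells (median -0.18 against -0.05), and lowered 7 and raised 2 in naive cells (-0.19 against -0.01), beside 56.6% and 55.1%. In unstimulated cells 9 of the 14 were lower and 1 higher in GC than in naive cells (median -1.56 against -0.07), beside 53.7% of all genes, among them Ctss at -1.56 ± 0.14 and Ctsw at -5.17 ± 0.47.

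The classical targets of the aryl hydrocarbon receptor had low values. Of 8 listed, 1 passed the filter, Nqo1, a quinone reductase. Cyp1a1, the cytochrome P450 by which receptor activity is usually read, never exceeded 0.39 on the log2 scale, Cyp1b1 never -0.82 and Ahrr, the receptor's repressor, never 0.38, so all 3 stayed under the filter value in 66 of 66 libraries. Nqo1 was lower in GC than in naive cells without stimulus (-3.56 ± 0.46, adjusted p = 2.35e-06) and under anti-CD40 in set B (-2.95 ± 0.46). Under anti-CD40 in set A it had -0.71 ± 0.55 (adjusted p = 0.243), and it was called in no comparison of stimuli. Of 7 partners and chaperones 5 passed the filter. When anti-CD40 was added to IL-21, 3 of the 5 rose and 1 fell in each cell type, beside 56.6% of all genes called in GC and 55.1% in naive cells. The medians were 0.22 in GC and 0.20 in naive cells, against -0.05 and -0.009 for all genes. The 1 that fell was Arnt, the receptor's dimer partner (-0.47 ± 0.08 in GC, -0.52 ± 0.08 in naive cells). With anti-CD40 against no stimulus, 1 of the 5 rose in GC cells, beside 13.9% of all genes. It was Ptges3, the p23 co-chaperone (0.72 ± 0.16).

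Enzymes of tryptophan metabolism, some of which make ligands of the receptor, changed under anti-CD40 and IL-21, and 4 of the 5 listed passed the filter. Il4i1, an amino acid oxidase, rose with anti-CD40 by 3.07 ± 0.26 in GC and 4.91 ± 0.26 in naive cells. It also rose when anti-CD40 was added to IL-21 (3.48 ± 0.15 and 4.44 ± 0.16) and to anti-IgM (2.81 ± 0.26 and 2.34 ± 0.26), while Ahr itself passed in none of these 6 comparisons. Kynu, kynureninase, rose with anti-CD40 by 1.74 ± 0.17 and 1.45 ± 0.17, and fell when IL-21 was added (-0.63 ± 0.09 and -0.38 ± 0.08). Ido1, which opens the tryptophan ring, rose when IL-21 was added to anti-CD40, by 3.43 ± 0.36 in GC and 3.90 ± 0.34 in naive cells, and Ido2 rose in GC cells by 3.61 ± 0.60. In naive cells anti-CD40 went with lower Ido1 against no stimulus (-1.40 ± 0.42, adjusted p = 0.0157) and on top of anti-IgM (-1.48 ± 0.42, adjusted p = 0.0318). The first call was lost without anti-CD40 replicate 5 at 2 h (-0.88) or unstimulated replicate 1 at 4 h (-1.24) and with the block on the title numbers (adjusted p = 0.154), and the second in 6 fits without 1 library (-1.02 to -1.56). Ido1 was higher in GC than in naive cells without stimulus (4.95 ± 0.42) and under anti-CD40 (6.72 ± 0.42 in set B, 6.90 ± 0.36 in set A), the opposite direction from Ahr. Over the 4 enzymes the median difference was 1.05 in GC and 0.73 in naive cells with anti-CD40, against -0.02 and 0.02 for all genes.

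Relatives of Tiparp in the PARP family, 13 of 14 of which passed the filter, moved in each direction. With IL-21 added to anti-CD40, 1 rose and 3 fell in GC cells (median -0.09 against -0.03), Parp14 by 0.79 ± 0.10 upward and Parp1, the DNA-damage sensor, by 0.62 ± 0.08 downward, and 3 rose and 3 fell in naive cells, beside 33.2% and 24.3% of all genes called. With anti-CD40, Parp9 rose by 2.69 ± 0.13 in GC and 0.53 ± 0.13 in naive cells, where Tiparp fell. With anti-IgM, 1 rose and 3 fell in naive cells, beside 30.4% of all genes. Parp8 was higher in GC than in naive cells without stimulus (3.46 ± 0.19), in contrast to Tiparp.

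Genes of IL-21 receptor and STAT signalling, all 14 of which passed the filter, moved mostly upward with IL-21. With IL-21 added to anti-CD40, 10 rose and 1 fell in GC cells (median 0.83 against -0.03) and 12 rose and 1 fell in naive cells (0.62 against -0.01), beside 33.2% and 24.3% of all genes called. Socs3, a feedback inhibitor of JAK signalling, rose by 7.42 ± 0.18 in GC and 5.38 ± 0.17 in naive cells, and Cish by 3.69 ± 0.20 and 3.39 ± 0.19. Batf, a transcription factor of activated lymphocytes, rose by 3.05 ± 0.18 and 3.80 ± 0.17, and Stat3 itself by 1.43 ± 0.10 in GC cells. The rise was not particular to IL-21. With anti-CD40 against no stimulus, 6 rose and 1 fell in GC cells (median 0.91 against -0.02), beside 13.9% of all genes called. In naive cells 4 rose and 1 fell (0.23 against 0.02), beside 28.7%. Batf rose there in GC cells too, by 3.24 to 3.57 in the fits that left out 1 library. When anti-CD40 was added to IL-21, 8 of the 14 rose and 4 fell in GC cells (median 0.34 against -0.05), beside 56.6% of all genes called. In naive cells 5 rose and 5 fell (-0.08 against -0.009), beside 55.1%. Socs1 was among those that fell, by 1.65 ± 0.10 in GC and 1.44 ± 0.10 in naive cells. With anti-IgM against no stimulus, 0 of the 14 rose and 1 fell in GC cells, and 2 rose and 6 fell in naive cells, beside 9.05% and 30.4% of all genes.

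Over the 28 means of cell type, stimulus, time and set, each centred on its set, the 5 genes most like each of the 4 were found by Pearson's r. The means share cells, set and scaling, so r is a description and no test goes with it. The genes nearest Serpinb1a were Ctsc (0.920), Hnrnph2 (0.918), Crem (0.911), Nipsnap3b (0.903) and Cdh17 (0.903). Serpina3g had Stat3 (0.903), Socs3 (0.902), Fgr (0.896), its neighbour Serpina3f (0.879) and Rrad (0.869). For Tiparp they were Ndrg1 (0.887), Irs2 (0.887), Egr2 (0.886), Fbxo4 (0.877) and Egr1 (0.868). For Ahr they were Il7r (0.900), Slc1a5 (0.880), Zbtb32 (0.871), Cd63 (0.862) and Serpinb9 (0.861). Among the 4 genes themselves Serpinb1a went with Tiparp (0.859) and Serpina3g (0.821) more than with Ahr (0.615), and Tiparp with Ahr at 0.763. Serpina3g and Ahr were least alike (0.392), and Serpina3g and Tiparp had 0.591.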

How the data were processed

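Bulk RNA-seq was measured in 66 libraries, with 1 file of 23420 gene values each. Per the submitters' processing notes, reads passed FastQC 0.11.7 and Trim Galore 0.6.5, were aligned to mm10 with STAR 2.6.1a, counted with featureCounts (Subread 2.0.1) and handled with limma. The authors deposited log2 values, without counts or library totals, so depth is unknown and no count test was run. Genes above log2 of 1 in at least 4 libraries (11264) were fitted with limma 3.58.1 (R 4.3.3, statmod 1.5.0, trended and robust variance), in a separate fit for each library set (22 and 16 residual degrees of freedom). Effects are the mean of the 2 h and 4 h differences, and p-values were Benjamini-Hochberg adjusted over all genes tested, with a threshold of 0.05. The fits were tested on simulated data.

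No label says that replicates came from separate animals or cultures, so the p-values cover the library-to-library spread alone, part of which may be technical. Replicates are named by the numbers in their titles. The replicate block instead used the numbers in the file headers, where the set B anti-CD40 libraries are numbered as the other set B groups are, while their titles are numbered after the set A groups. Same-numbered set B libraries deviated together from their group means (56 of 56 GC pairs at 0.528 to 0.733, 56 of 56 naive pairs at 0.588 to 0.729), and set A libraries did not (4 of 40 and 5 of 40 pairs over 0.1). The main fits had no block.

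The 4 genes and the lists were chosen with earlier results of these data known. Named genes are the 4 genes, the 5 most correlated genes of each, and up to 4 genes with the smallest adjusted p of each list and comparison. The comparisons of anti-CD40 effects between cell types on top of IL-21 and of anti-IgM were added after the data were seen. Alternatives were each time alone, other filters, libraries centred on their medians, limma without trend and robust variance, 1 cell type alone, 1 fit over both sets, the replicate block (with header and, in set B, with title numbers) and leaving out each library. Marker sums are sums of back-transformed values. Promoter windows are from RefSeq (GRCm38.p6), and gene positions and transcript sequences from the GENCODE annotation of GRCm38.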

Additional observations from a re-analysis of the deposited data

Results flagged for a closer look

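The fall of Tiparp when anti-CD40 was added to IL-21 differed between the cell types, with a GC minus naive log2 difference of -0.65 ± 0.12 (limma, adjusted p = 0.000221). The anti-CD40 effect on Serpinb1a against no stimulus differed by 1.01 ± 0.28 (limma, adjusted p = 0.0441), a call that most fits without 1 library lost.

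In the other cases the 4 h libraries lay wholly above the 2 h libraries in either GC or naive cells, and wholly below them in the other cell type. Each group held only 2 libraries, and gaps could be small, as for Ahr in unstimulated naive cells (4.217 at 4 h against 4.235 at 2 h). None of these changes passed the threshold in the main fits, and some did with the replicate block, as given above. How many of all genes show such a pattern was not counted. The difference between the cell types was not tested in these. With anti-IgM, Serpinb1a changed by 0.48 in GC and -0.80 in naive cells. Without stimulus, Serpina3g changed by -0.60 in GC and 0.60 in naive cells. Ahr changed by 0.69 in GC and -0.29 in naive cells with anti-CD40 in set B, and by 0.17 in GC and -0.50 in naive cells without stimulus.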

How the results depend on the processing

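With the replicate block, Serpina3g gained a call for anti-CD40 in GC cells (-0.54) and, with Tiparp, for the GC against naive difference of the anti-CD40 effect (0.75 and 0.69), and Ahr for anti-CD40 added to naive cells with anti-IgM (0.37) and with IL-21 (0.44). Set A numbers did not pair libraries, so the last is a block over numbers only. The block lost no call of the 4 genes. For GC against naive cells in set B it lowered the count of genes called, from 6047 to 5348 without stimulus and from 6122 to 5311 under anti-CD40. It raised the count for anti-CD40 from 1571 to 3649 in GC and from 3235 to 5631 in naive cells, and for the difference of effects from 463 to 1871. With the title numbers as the block, Ahr added to anti-IgM in naive cells was called (0.37), and Serpinb1a (-1.03) and Tiparp (-0.51) with anti-CD40 in GC cells and the Serpinb1a difference of effects (1.01) lost their calls, and those 3 counts moved the other way, to 746, 1937 and 95.

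At 2 h alone, calls were lost for Serpinb1a (-0.17) and Tiparp (-0.38) with anti-CD40 in GC cells, Serpina3g in naive cells (-0.58), Tiparp with anti-CD40 added to anti-IgM in GC cells (-0.62) and the Serpinb1a difference of effects (1.08). Serpina3g added to IL-21 in naive cells gained one (-0.56). Signs turned for Ahr with anti-CD40 added to IL-21 in GC cells (0.013), added to anti-IgM (-0.093) and against no stimulus (-0.093) in naive cells. Serpini1 with IL-21 added in GC cells (0.037), Kynu with anti-IgM in naive cells (0.34) and Serpine2 with anti-CD40 added to IL-21 in GC cells (0.40) turned too. At 4 h alone, Serpina3g with anti-CD40 in GC cells gained a call (-0.92), Tiparp added to anti-IgM in GC cells (-0.29) and the Serpinb1a difference (0.95) lost theirs, and signs turned for Ahr with anti-CD40 in GC cells (0.039) and Serpina3g added to IL-21 (0.22 in GC, 0.21 in naive cells).

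With 1 cell type alone, Tiparp added to anti-IgM in GC cells lost its call (-0.46) and Serpina3g added to IL-21 in naive cells gained one (-0.18). Without a filter, Tiparp (-0.46) and the Serpinb1a difference (1.01) lost theirs. In 1 fit over both sets, Serpina3g gained calls for anti-CD40 in GC cells (-0.54) and its difference (0.75), as did the Tiparp difference (0.69), and the time change of Ahr with anti-CD40 in GC cells of set A turned to 0.19. The cause was not tested. Counts over all genes moved by over 1.5 times in 16 of 30 comparisons with the block (1.68 to 16.9 times the main count), 16 of 18 in set B with the title numbers (0.21 to 15.6), 17 of 30 in 1 fit over both sets (0.34 to 6.12), 11 of 14 at 2 h alone (0.10 to 0.62), 4 of 14 at 4 h alone (0.50 to 0.66), 3 with 1 cell type alone and 1 without a filter. Median centring, the stricter filter and limma without trend and robust variance moved none past that bound.

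Leaving out 1 library each, Serpinb1a ranged from 0.78 to 1.25 for the difference of effects and from 0.19 to 0.32 for GC minus naive on top of IL-21. Tiparp ranged from -0.51 to -0.40 with anti-CD40 added to anti-IgM in GC cells, from -0.63 to -0.39 with anti-CD40 in GC cells and from 0.57 to 0.81 for the difference of effects. Serpina3g ranged from -0.057 to 0.030 added to IL-21 in GC cells and from -0.18 to 0.17 for GC minus naive on top of anti-IgM. Ahr ranged from 0.22 to 0.66 added to IL-21 and from -0.19 to 0.21 with anti-CD40 in naive cells, and for GC minus naive from -0.87 to -0.42 on top of IL-21 and from -0.203 to 0.034 on top of anti-IgM. Time changes that crossed 0 were those of Ahr with anti-CD40 in naive cells of set A (-0.27 to 0.11), Serpinb1a with IL-21 in naive cells (-0.020 to 0.041) and Tiparp with anti-CD40 in GC cells of set B (-0.35 to 0.14).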
